A study of Homo sapiens with 12 samples.

Results

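The 10 genes described here encode the FOS, JUN and EGR transcription factors: FOS, FOSB, FOSL1 and FOSL2, then JUN, JUNB and JUND, then EGR1, EGR2 and EGR3. They were chosen by name, and all 10 were found once each among the 56269 gene rows of a read count table from HCC1954, a human breast cancer line with amplified ERBB2. By their titles, the 12 cultures of the series were treated for 24 hours with DMSO, SNXB at 1 µM, Lapatinib at 1 µM (a kinase inhibitor of EGFR and ERBB2) or their Combination, in 3 biological repeats each. The labels do not say what SNXB acts on or which doses make up the Combination. The table's 12 columns, S13 to S24, carry names of alignment files that no label of a sample repeats. They were therefore read as 12 HCC1954 cultures of unknown treatment, tied to the line only through the name of the table. No treatment was compared with another. Differences between the libraries include treatment, culture and library preparation, which cannot be told apart here.

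FOS and JUN proteins form the AP-1 dimers: JUN proteins pair with each other or with a FOS protein, while FOS proteins need a JUN partner to bind DNA. Many of these genes are immediate early genes, switched on within minutes when a growth factor receptor activates the ERK kinases, through SRF and its ELK partners at CArG boxes in their promoters. FOSL1 (FRA1) and FOSL2 (FRA2) are made and kept over longer times of ERK signalling, and JUND is known for steady expression in many cells. EGR proteins are zinc finger factors of the same early response, and NAB1 and NAB2 bind them as co-repressors.

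Upstream sequences were available from RefSeq (GRCh38.p14) for 8 of the 10 genes, all but FOSL1 and EGR3, in 10 windows because EGR2 has several starts. The 250 bases before each start were searched on both strands for the CArG box, for the AP-1 site TGAGTCA or TGACTCA, for the related sites TGACGTCA and TGACATCA, and for the EGR site GCGTGGGCG. EGR1 had 2 CArG boxes, 105 and 83 bases before its start at their first base. Its ratio of highest to lowest CPM was the largest of the members, with a counting interval that overlaps those of FOSL1 and FOS. JUND, the most abundant member, had TGACGTCA 200 bases before its start. Both windows are shown with these sites in capitals, EGR1 on the plus strand at chr5:138465229-138465478 and JUND on the minus strand at chr19:18281623-18281872.
EGR1: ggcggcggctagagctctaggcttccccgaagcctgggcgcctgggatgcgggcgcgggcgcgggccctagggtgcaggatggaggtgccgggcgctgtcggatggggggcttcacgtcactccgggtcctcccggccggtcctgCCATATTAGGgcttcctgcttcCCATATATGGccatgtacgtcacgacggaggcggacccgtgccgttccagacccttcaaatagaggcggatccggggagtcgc
JUND: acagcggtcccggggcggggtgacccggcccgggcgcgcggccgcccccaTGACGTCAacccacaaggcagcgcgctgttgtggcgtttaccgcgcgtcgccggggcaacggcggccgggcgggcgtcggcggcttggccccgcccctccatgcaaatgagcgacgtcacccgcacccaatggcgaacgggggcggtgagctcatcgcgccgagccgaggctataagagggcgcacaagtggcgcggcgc

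JUN had TGACATCA 67 bases before its RefSeq start. The site is shown in capitals with 10 bases on each side, on the minus strand at chr1:58784097-58784124. In the annotation of the count table JUN begins further out, at 58784327, so there the site lies inside its exon.
JUN: ggccttggggTGACATCAtgggctattt

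One EGR2 window had a CArG box 71 bases before its start, and the windows of FOS, FOSB, FOSL2 and JUNB held none of the letters searched for. Sequence further upstream than 250 bases was not searched, so these genes may hold such sites there. Among all 35116 RefSeq windows of the same length, 1.16% held a CArG box, 1.65% TGACGTCA, 2.37% TGACATCA, 4.2% the AP-1 site and 0.72% the EGR site. A match describes the letters in the window and was not tested as a binding site.

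The 12 libraries held between 9289353 and 12219397 counted fragments, so 1 fragment was worth 0.0818 to 0.108 CPM (counts per 1000000 counted). No pair of libraries was identical, and all 66 pairs differed beyond counting error. S21 to S24 stood apart, with 20720 to 21295 rows that had a fragment beside 22890 to 24681 in the other 8, and TMM factors of 0.939 to 0.979 where the others lay above 1, up to 1.04. The highest levels of JUN (S21, S22 and S23) and FOSL1 (S22 and S21) lay in these 4 libraries, and the part of this difference in those levels was not tested. Ranges, the r of some member pairs and the count of ERK output genes that ran with FOSL1 are given also over the other 8. That choice was made after seeing the data. Other results are not given without S21 to S24. Markers of the line were present: the summed CPM of 8 genes (ERBB2, GRB7, EPCAM, KRT8, KRT18, KRT5, ESR1 and PGR) was 13200 to 19000, with PGR at 0 everywhere. ERBB2 stood at 3870 to 9320 CPM. Of the markers of other cells, 4 blood cell genes summed to at most 0.889 CPM, and DCN and COL3A1 had no fragment in any library. The fibroblast gene COL1A1 reached 14.7 CPM, and the endothelial genes PECAM1, VWF and CDH5 summed to 47.3 to 142 CPM; whether these come from the line itself was not tested. All 37 rows of the mitochondrial genome were listed at 0 in every library.

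Levels of different genes are compared as TPM, which divides counts by the exonic length of each gene and scales each library to the same sum. In that unit HCC1954 cells made mainly JUND, JUNB, JUN and FOSL2, a varying amount of FOSL1, little EGR1, FOS and FOSB, and hardly any EGR2 or EGR3. A bulk level of this kind does not tell how many cells make a transcript from how much each cell makes. At least 10 fragments in every library were counted for 6 of the 10 members: FOSB, FOSL1, FOSL2 and the 3 JUN genes. That limit was passed by 12519 of all rows, 22.2%.

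**Figure D1:**
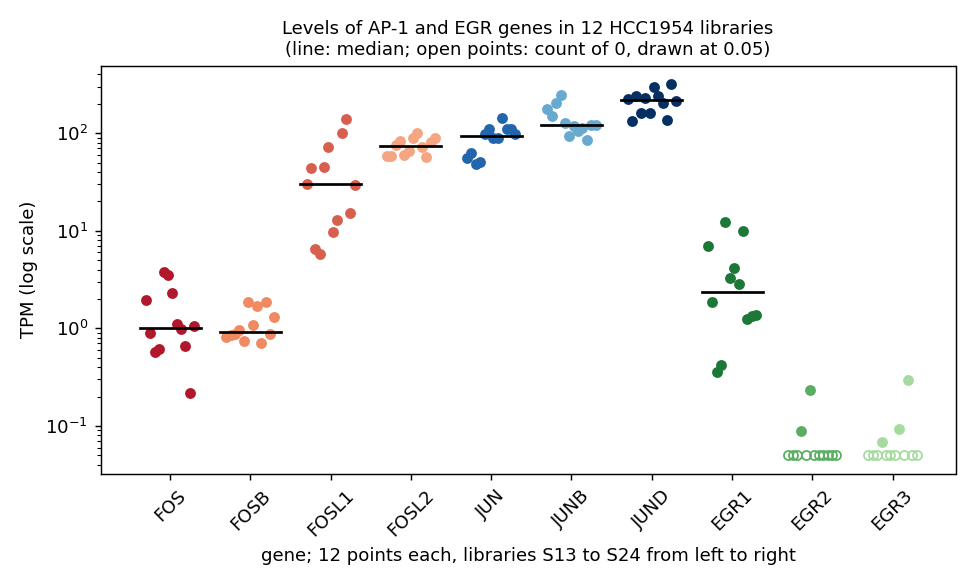
TPM (log scale) of the 10 genes in 12 HCC1954 libraries, 1 point per library in the order S13 to S24 and a line at the median; open points are counts of 0, drawn at 0.05. JUND has the highest median, 217.8 TPM, FOSL1 and EGR1 spread most among the genes with a median above 1 TPM, and most points of EGR2 and EGR3 are at 0.

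JUND, a JUN protein known for restraining growth in many cells, on chromosome 19 (GRCh38, 18279760 to 18281622), had a median of 217.8 TPM, with 131.6 in S14 as the lowest and 316.7 in S23 as the highest value. Its rank among all rows by TPM lay between 516 and 1537. JUNB, which often opposes JUN at shared targets and lies on the same chromosome (12791496 to 12793315), followed with a median of 121.9 TPM (85.33 in S22 to 246.7 in S16). JUN itself, the member best known for driving the cell cycle, lies on chromosome 1 (58780788 to 58784327) and had a median of 94.03 TPM (48.53 in S15 to 144.2 in S21).

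The order of the JUN genes was not fixed from library to library. JUND was above JUNB in 10 of 12 libraries, and the exceptions were S14 and S16. JUNB was above JUN in 9 of 12, and the ranges of these neighbours overlapped. JUND was the highest of all 10 members in 9 libraries, JUNB in S14 and S16, and FOSL1 in S22. As a share of the 3 JUN genes' summed TPM, JUND held 35.1% to 58.8%, JUNB 22.3% to 54.0% and JUN 9.83% to 33.4%.

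FOSL2 and FOSL1 made up nearly all FOS family transcripts. FOSL2, on chromosome 2 (28392448 to 28417312), had a median of 73.44 TPM and a narrow range, from 56.31 in S22 to 100.8 in S20. FOSL1, on chromosome 11 (65892049 to 65900573), had a median of 29.78 TPM, from 5.77 in S16 to 140.8 in S22. FOSL2 was the higher of this pair in 9 libraries, and FOSL1 was the higher in S18, S21 and S22, so their order depends on the library.

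FOS, on chromosome 14 (75278774 to 75282230), and FOSB, on chromosome 19 (45467995 to 45475179), are the classical early members. FOS had a median of 8 fragments (2 in S23 to 30 in S17), or 1.019 TPM. FOSB had a median of 15 fragments (10 in S17 to 29 in S22), or 0.9156 TPM. Each was above the other in 6 of 12 libraries, so their order was not resolved. FOS held at most 3.48% and FOSB at most 1.45% of the FOS family's summed TPM.

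Over the 7 AP-1 genes together, the JUN genes held between 62.4% of the summed TPM in S22 and 85.6% in S15. The median share was 39.5% for JUND, 20.7% for JUNB, 16.5% for JUN, 13% for FOSL2 and 5.42% for FOSL1. The share of JUNB was 16.1% in S22 and 45.1% in S16. The share of FOSL1 was 1.06% in S16 and 26.5% in S22, where it exceeded the 25.5% of JUND. These shares count transcripts and say nothing of protein or of dimers.

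**Figure D2:**
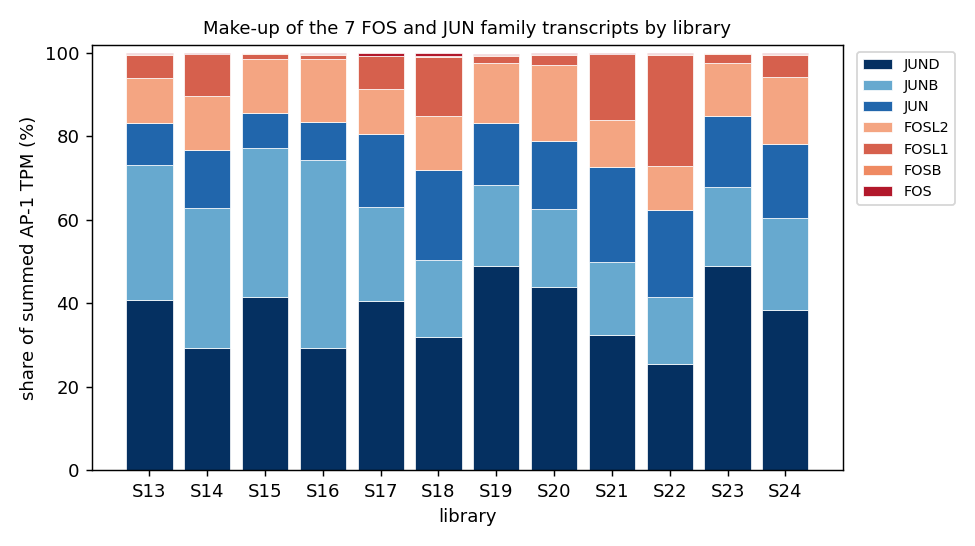
Share of the summed TPM of the 7 FOS and JUN genes (%) in each library; each bar adds to 100 and each colour is a gene. The blue JUN genes hold 62.4% to 85.6% of every bar, and the FOSL1 block grows from 1.06% in S16 to 26.5% in S22.

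EGR1, on chromosome 5 (138465490 to 138469315), was the only EGR gene with fragments in every library. It had 94 fragments in S17, 89 in S21 and 62 in S13, then 35 in S19, 24 in S18, 20 in S20, 16 in S14, 12 in S23, 11 in S22 and 10 in S24. The lowest were S16 with 4 and S15 with 3. In CPM the extremes were 9.583 and 0.2651, with a median of 1.783. S13, S17 and S21 thus stood above all others, with a step to the next library from 5.233 to 3.136 CPM, and S15 and S16 stood below all others.

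EGR2, which acts in nerve and immune cells and lies on chromosome 10 (62811996 to 62919900), had 3 fragments in all, 2 in S18 and 1 in S16, and was at 0 in 10 libraries. EGR3 had 6 fragments in all, 4 of them in S22, and was at 0 in 9 libraries. For a count of 0 the upper end of the exact central 95% interval (counting error only) ran from 0.3114 CPM in S13 to 0.3971 CPM in S20 for EGR2. For EGR3 it ran from 0.3114 CPM in S13 to 0.3887 CPM in S24. Where fragments were counted, the upper ends of the 95% intervals were higher: 0.7472 CPM for EGR2 in S18, and 0.9262 in S22 and 0.5998 in S20 for EGR3. Of the 4855 exonic bases of EGR3, 3.38% lie opposite a clone-named gene, and strand was not used in the counting.

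Next the spread of each gene over the libraries was compared with counting error and with other genes. EGR1 spanned 36.1-fold between its highest and lowest CPM, with a 95% interval of 12 to 178 from counting error alone. FOSL1 spanned 24.7-fold (17.5 to 36.2), or 12.1-fold without S21 to S24, and FOS 17.6-fold (4.47 to 152). The FOS value rests on 2 fragments in S23 and was 6.92 without that library. JUN spanned 3.13-fold (2.29-fold without S21 to S24), JUNB 2.85-fold, FOSB 2.68-fold, JUND 2.45-fold and FOSL2 1.72-fold.

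Among 9716 genes with a median of at least 100 fragments, the median range was 1.68-fold, and 90% of genes stayed under 3.01-fold. Of these genes, 19 ranged more widely than FOSL1, which put it at the 99.8th percentile. JUN lay at the 90.9th, JUNB at the 88.5th, JUND at the 83.2nd and FOSL2 at the 53.3rd percentile. The highest over lowest CPM of FOSL2, though it is a FOS family gene like FOSL1, was thus near the median of these genes.

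**Figure D3:**
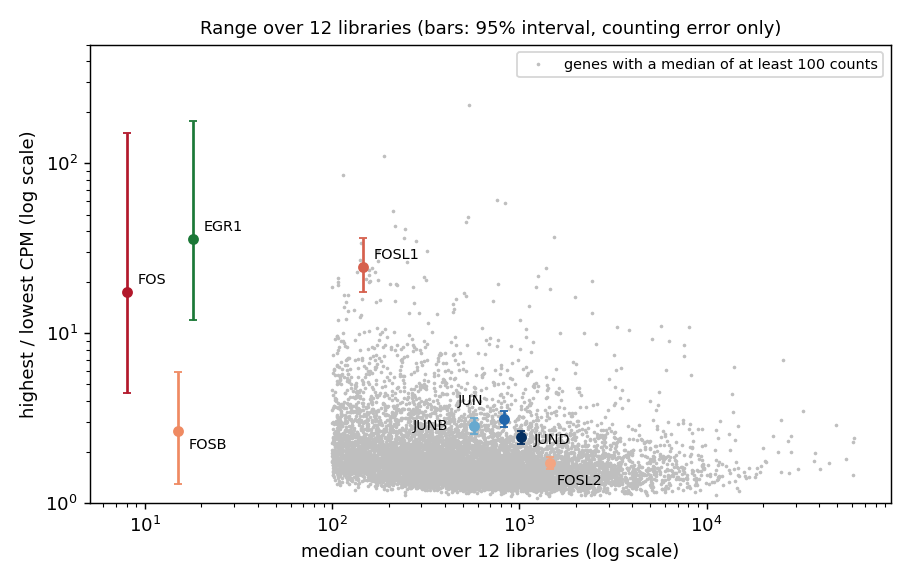
Highest over lowest CPM (log scale) against the median count (log scale) over 12 libraries; grey points are 9716 genes with a median of at least 100 fragments, coloured points are members, and bars are 95% intervals from counting error. FOSL1 at 24.7-fold lies above nearly all grey points and FOSL2 at 1.72-fold lies among them.

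For the sparse members, the scatter of the counts was set against counting error by a chi-square per degree of freedom, which is about 1 when counting error alone separates libraries. It was 33.9 for EGR1, beside a median of 2.99 for 1759 genes of a similar count (within 1.5 times). It was 7.98 for FOS, beside 2.36 for 2023 genes. FOSB gave 2.45, beside 2.89 for 1831 genes, so the libraries differed in FOSB by no more than they did in a typical gene of that count. FOSL1 reached 224, beside 6.34. FOSL2 gave 50.1, beside 26.1 for 1724 genes, the 71.1st percentile among them, so by this measure it varied more than the typical gene of its count.

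FOSL1 had its highest levels in S22 and S21, with 66.83 and 47.54 CPM, followed by S18 with 32.58, S17 with 20.9 and S14 with 20.3. S24 with 13.8 and S13 with 13.59 CPM lay in the middle. The lowest were S23 with 7.111, S20 with 5.813, S19 with 4.391, S15 with 2.916 and S16 with 2.701 CPM. The widest step on the log2 scale lay between S23 and S13.

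JUN was low in S13 to S16, at 40.9 to 53.5 CPM, and at 75.5 to 128 CPM in the other 8 libraries. JUNB showed the reverse, with 66.5 to 111 CPM in S13 to S16 and 39.1 to 57.1 CPM in the other 8. These 4 libraries were picked as those of lowest JUN, so the separation in JUN follows from that choice. The 2 ranges of JUNB did not overlap either. Of the 1820 exonic bases of JUNB, 14.2% lie opposite HOOK2, which was itself counted at 22.3 to 60.7 CPM (r = 0.561 with JUNB), and how far fragments of HOOK2 or lost shared fragments moved the JUNB counts was not tested.

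**Figure D4:**
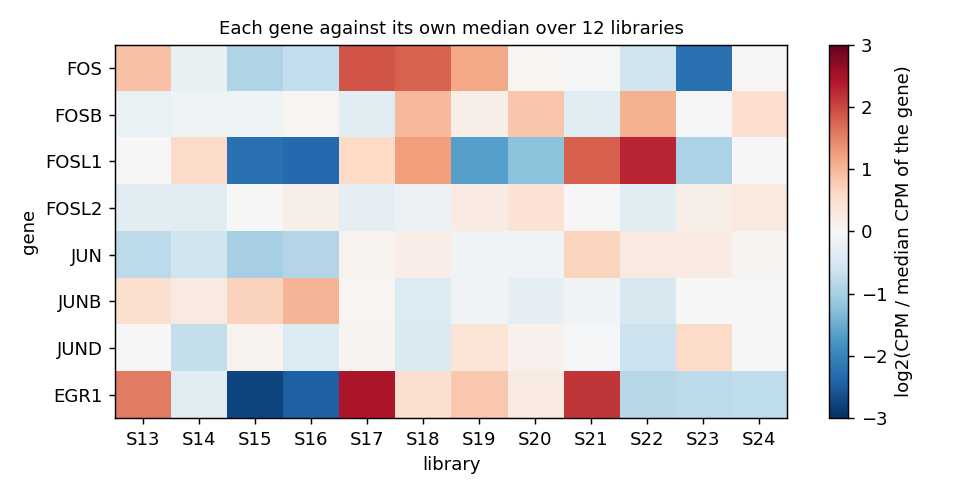
log2 of CPM over the median CPM of the same gene, for the 8 members with a fragment in every library (rows) and 12 libraries (columns); red is above and blue below the median. FOSL1 and EGR1 are both lowest in S15 and S16, while EGR1 is highest in S17 and FOSL1 in S22.

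Co-variation was computed on log2(CPM + 0.5) for the 7 members with a median of at least 10 fragments, which leaves out FOS, EGR2 and EGR3. The 21 pairs are described by Pearson's r and Spearman's rho over 12 libraries, with no p-value, since the titles make these cultures repeats of 4 treatments and not 12 independent samples. Depth and normalisation are also shared by all genes of a library. In 1 of the 21 pairs r reached 0.7 in size, the negative relation of JUN and JUNB (r = -0.838, rho = -0.755). In the 8 libraries other than S13 to S16 r was -0.0505. Those 4 were picked as the libraries of lowest JUN, which narrows the range of JUN and can by itself weaken r. The value therefore does not show what the relation rests on. Without S21 to S24 the r of JUN and JUNB was -0.909.

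Over all 12 libraries FOSL1 was most like JUN among the members, with r = 0.649 and rho = 0.769. That r was 0.533 without the 2 libraries farthest from the FOSL1 median. In the 8 libraries other than S13 to S16 the same pair gave r = 0.733, and without S21 to S24 it gave r = 0.552. FOSL1 ran against FOSL2 (r = -0.614) and JUNB (r = -0.639), and the latter fell to -0.366 without the 2 farthest libraries. FOSL1 and EGR1, both known as ERK-responsive, gave r = 0.48 over 12 libraries. Their r was 0.607 without the 2 farthest libraries and 0.638 without S21 to S24, both times above that of FOSL1 and JUN. By rho, JUN stayed nearer to FOSL1 without S21 to S24 (0.762, beside 0.595 for EGR1). In S22, left out in both of these settings, FOSL1 and EGR1 differed: it had the highest FOSL1 and, with 11 fragments, the fourth lowest EGR1 count. JUND and FOSL2 gave r = 0.553, and JUND and JUNB r = -0.0146.

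Genes of the ERK output list, which holds feedback inhibitors and targets of this pathway, ran with FOSL1 over these libraries. The list was chosen with earlier results of these data known. Of the 13 listed genes with at least 10 fragments in every library, 12 had r of at least 0.7 to FOSL1. That held for 16% of 12518 detected genes, which include the 13 but not FOSL1. The median r was 0.897, beside -0.155 for those 12518 genes. Without S21 to S24 the count was also 12 of 13, beside 19.8% of the detected genes, and the median r was 0.926 beside -0.0333. The exception was SPRY1 with r = -0.529. CCND1 (cyclin D1), the most abundant of the list, ran from 531 CPM in S15 to 3350 CPM in S22 with r = 0.97. EPHA2, a receptor tyrosine kinase, gave r = 0.872, and DUSP5, a nuclear ERK phosphatase, gave r = 0.799. The feedback phosphatase DUSP6 (2.47 CPM in S15 to 50.4 CPM in S22) gave r = 0.897, and the ETS factor ETV5, which ran from 1.24 CPM in S15 to 65.0 CPM in S18, gave r = 0.895. DUSP6 and ETV5 were named after their values were seen.

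**Figure D5:**
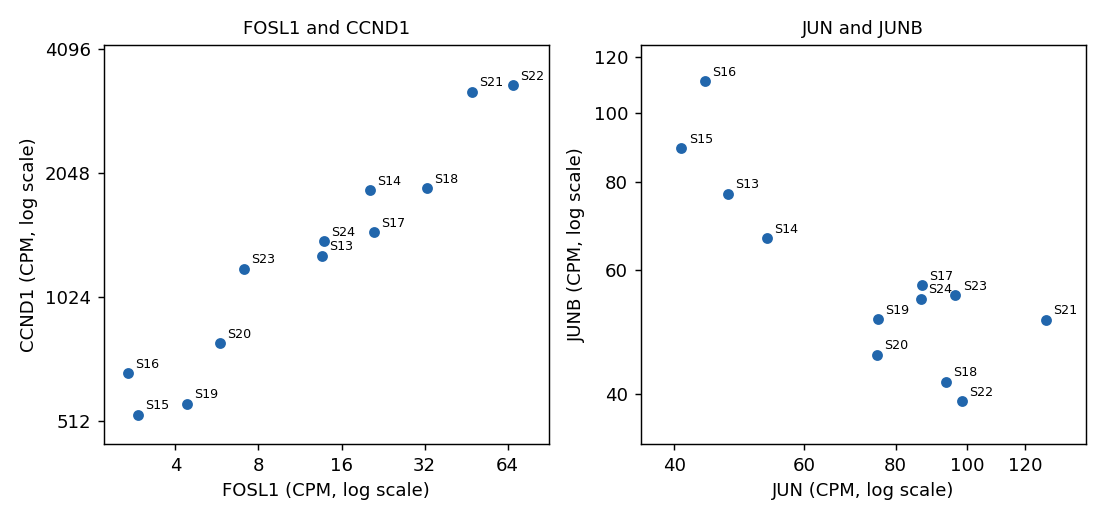
CPM (log scales) of FOSL1 and CCND1 (left) and of JUN and JUNB (right), 1 named point per library. CCND1 rises with FOSL1 from 531 CPM in S15 to 3350 CPM in S22. In the JUN and JUNB panel, S13 to S16 have the lowest JUN and the highest JUNB.

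None of these 13 genes had r of at least 0.7 to EGR1, JUN, JUNB, JUND or FOSL2. The remaining gene of the list, ETV1, had 1 fragment in S15 and gave r = 0.772 to FOSL1 and r = 0.711 to EGR1. Over all detected genes that limit was reached by 2.07% for EGR1, 4.88% for JUN, 2.32% for JUNB, 3.17% for JUND and 2.72% for FOSL2, all below the share for FOSL1. None among 13 is near these shares. The list's median r was 0.388 to EGR1, 0.454 to JUN, -0.491 to JUNB, -0.649 to JUND and -0.651 to FOSL2. Over all detected genes the median r was 0.000454, -0.136, 0.0865, 0.00861 and 0.0179 in the same order. In the negative direction 2 of the 13, DUSP6 and SPRY4, had r of -0.7 or lower to FOSL2, beside 2.15% of all detected genes, and SPRY4 to JUND, beside 2.01%. ETV1 and SPRY4 were named after their values were seen.

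Of the 24 other immediate early genes, 21 had at least 10 fragments in every library. MCL1, a survival factor of the BCL2 family, was the most abundant with a median of 423 TPM, followed by IER3 with 225 TPM and ZFP36L1, an mRNA decay factor, with 180 TPM. Relative to FOSL1, 4 of the 21 had r of at least 0.7 (IER3, IER5, NR4A1 and TRIB1) and 3 had r of -0.7 or lower (ZFP36L1, GADD45B and BTG2). All detected genes reached these limits in 16% and 19.8% of cases, so both counts are near the background. Relative to JUN there were also 4 with r of at least 0.7, namely ATF3, DUSP1, KLF6 and CYR61, beside 4.88% of all detected genes. Relative to JUNB there were 2, IER2 with r = 0.92 and GADD45B with r = 0.825, beside 2.32%. For JUND there were 2, KLF10 and RHOB, beside 3.17%, and for EGR1 there was TRIB1 with r = 0.774, beside 2.07%. The genes of these counts were named after their values were seen. At r of -0.7 or lower there was 1 for JUN, beside 9.33% of all detected genes, and 1 for JUNB, beside 3.59%. JUND had 2, beside 2.01%, and EGR1 had 0, beside 1.49%. The early genes spread over several patterns: their median r was 0.182 to FOSL1 and -0.0502 to EGR1.

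Other proteins that pair with JUN or FOS were present as transcripts. Of 14 listed dimer partners, 9 passed 10 fragments in every library, with MAFK at a median of 71.4 TPM, BATF at 55.9 TPM and MAFG at 30.5 TPM as the highest. MAFK and MAFF, small MAF proteins without an activation domain, were the 2 of these 9 with r of at least 0.7 to FOSL1 (0.867 and 0.881), beside 16% of all detected genes. MAFG, also a small MAF protein, gave r = 0.277. In the other direction 3 of the 9 had r of -0.7 or lower, beside 19.8% of all detected genes. JDP2, a repressor that dimerises with JUN, was lowest with r = -0.924 and ran from 9.5 CPM in S22 to 28.7 CPM in S15. MAFF and JDP2 were named after their values were seen. Of the EGR partners, NAB1 had a median of 39.2 TPM and NAB2 of 10.6 TPM, both above the 2.349 TPM of EGR1, and EGR4 had at most 9 fragments. SRF, which binds CArG boxes, had a median of 75.9 TPM, ELK1 50.7 TPM and ELK3 38.9 TPM, and all 6 SRF and TCF genes passed 10 fragments everywhere. These genes ranged 1.81-fold in the median. SRF gave r = 0.714 to FOSL1, the 1 of 6 past the limit of 0.7, which is near the 16% of all detected genes. Its r to EGR1 was -0.0413.

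Of 17 genes often described as AP-1 targets, 9 passed 10 fragments in every library. The most abundant were the chromatin protein gene HMGA1 with a median of 890 TPM, the adhesion receptor CD44 with 194 TPM and the urokinase receptor PLAUR with 117 TPM. Relative to FOSL1, 3 of the 9 had r of at least 0.7, beside 16% of all detected genes: CD44 with 0.97, HMGA1 with 0.876 and TIMP1, a metalloproteinase inhibitor, with 0.86. PLAUR fell just short with 0.699. The collagenase gene MMP13 ran the other way, from 94.5 CPM in S16, where FOSL1 was lowest, to 0.0904 CPM in S22, where FOSL1 was highest. Its r to FOSL1 was -0.9, and its lowest count was 1 fragment. TIMP1 and MMP13 were named after their values were seen.

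Finally, genes of the most similar pattern were sought for the 5 members with a median of at least 100 fragments, among the 9716 genes with such a median. For FOSL1 these were NSUN2, an RNA methyltransferase, with r = 0.987, XPO6, a nuclear export receptor, with r = 0.984, and BOP1, a ribosome assembly factor, with r = 0.983. NSUN2 ranged only from 263 to 473 CPM, so the likeness is in the pattern over the libraries on the log2 scale and not in the size of the range. For JUN the nearest were SYTL4 (r = 0.94), POLR3C (r = 0.933) and PRCC (r = 0.929). For JUNB they were ID3, an inhibitor of helix-loop-helix factors (r = 0.924), the early gene IER2 (r = 0.92) and TGFBI (r = 0.918). JUND was most like YTHDF3 (r = 0.937), C3orf38 (r = 0.923) and OPN3 (r = 0.922). FOSL2 was most like FAM118B (r = 0.929), PRKCZ (r = 0.918) and PCYOX1 (r = 0.913). No member was among the 3 nearest genes of another. Each is picked as the highest of 9716 values over 12 libraries, and no test was made of them.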

How the data were processed

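The authors deposited 1 table of raw fragment counts per gene name. Per the file headers, the counts were made with featureCounts 1.4.6 in paired mode on GENCODE 25 (exonic length, here unit other, is deposited beside them), with no strand option. The command names 24 alignment files, 12 of which are columns. STAR 2.4 and the build GRCh38 stand in the submitters' processing notes, and the library kit was directional per the labels' protocols.

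CPM is a count over the library's sum of gene counts, and TPM a count over exonic length, both scaled to a sum of 1000000 over all rows. Ranges carry exact 95% intervals that cover counting error only. TMM and RLE library sizes came from edgeR 4.0.16 and were used as alternatives, and the other values were computed with Python 3.11.15. The functions were tested on simulated data. No test between treatments was made and no samples were paired, because no column name gives a treatment or a repeat. Genes named are all members, the 3 most abundant genes of each list and the 3 nearest genes of each member, with others marked or given as exceptions. The members and lists were chosen with earlier results of these data known.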

Additional observations from a re-analysis of the deposited data

How the results depend on the processing

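The median CPM of the 7 members with a median of at least 10 fragments was recomputed with TMM and RLE library sizes. Totals without mitochondrial genes (which were all at 0) were also used. All these medians stayed within 1 SD of the libraries. The libraries mix 4 treatments, so that SD is a wide limit. TMM and RLE left the range of the 8 members with a fragment everywhere within its counting interval. Without length scaling FOSL2 took place 1, JUND 2, JUNB 4 and FOSB 7 in the order of levels, in place of 4, 1, 2 and 8. Leaving out bases shared with other genes changed no place. Leaving out each library in turn gave highest over lowest CPM of 29.3 to 36.1 for EGR1, 17.6 to 24.7 for FOSL1, 6.92 to 17.6 for FOS, 2.54 to 2.68 for FOSB, 2.41 to 3.13 for JUN, 2.28 to 2.85 for JUNB, 2.2 to 2.45 for JUND and 1.55 to 1.72 for FOSL2. Without S21 to S24, a choice made after seeing the data, it was 12.1 for FOSL1, 2.29 for JUN and 2.2 for JUND. That of the other 5 members stayed within its counting interval. For FOS this interval was wide, 4.47 to 152, and the value without S21 to S24 was 6.92. Pairs of members with r of at least 0.7 in size numbered 1 with TMM and with pseudocounts of 0.1 and 1, but 2 by Spearman's rho. They numbered 2 without S21 to S24 (FOSL1 with FOSL2, r = -0.722, besides JUN with JUNB). Without the 2 farthest libraries they also numbered 2, and 8 of 21 pairs moved by more than the error of r. The cause was not tested. That error holds for independent samples, which these repeats of 4 treatments are not. The r of JUN and JUNB was -0.7 without the 2 farthest libraries, and -0.0505 without S13 to S16. These were picked as the libraries of lowest JUN, a choice made after seeing the data. With a limit of 10 fragments in place of 100, 13 of the 15 nearest genes were kept. Depth limits FOS, EGR1, EGR2 and EGR3, whose lowest libraries hold 0 to 3 fragments.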

Other observations

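The libraries S13, S14, S15 and S16 held the lowest JUN and the highest JUNB levels, with no treatment known for any of them. In CPM, JUN was 47.3, 53.5, 40.9 and 44.0 in these 4, and 86.9 in S17, 93.7 in S18, 75.6 in S19, 75.5 in S20, 128 in S21, 98.5 in S22, 96.5 in S23 and 86.5 in S24. JUNB was 76.9, 66.5, 89.2 and 111 in the same 4, and 57.1, 41.7, 51.1, 45.5, 51.0, 39.1, 55.3 and 54.6 in S17 to S24. The widest gap in JUN was 30.1% of its range on the log2 scale, which did not reach the share of the range (1/3) set for calling values clustered. The widest gap in JUNB was 21.2% of its range and set S16 alone above the other 11 libraries. CTGF, an early gene whose r to the 6 members FOSL1, FOSL2, JUN, JUNB, JUND and EGR1 lay between -0.491 and 0.413, ranged 42.7-fold, from 1.77 CPM in S13 to 75.7 CPM in S18, the widest range among the 21 detected genes of the other immediate early list.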
